A study of Mus musculus with 12 samples.

Results

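The genes described here are 10 members of the signaling cascade by which ON bipolar cells of the retina answer photoreceptors, *Grm6*, *Trpm1*, *Gpr179*, *Nyx*, *Gnao1*, *Rgs7*, *Rgs11*, *Pcp2*, *Prkca* and *Lrtm1*. They were taken by symbol, and all 10 were found among the 56748 genes of the deposited table. Their mRNA was measured by RNA-seq of polyA RNA in ribosome-bound RNA pulled down from rods (Rod-TRAP, called rods) and in total RNA of the retina (the input, called retina). Control mice (Pkm2 Rodhet, titled wt; RiboTag, Pkm2 fl/+, i75-Rod-Cre) were compared with *Pkm2* Rodko mice (RiboTag, Pkm2 fl/fl, i75-Rod-Cre), with 3 libraries in each of the 4 groups. Both genotypes carried Ribo-Tag, in which Cre tags ribosomes with HA, and Cre expressed in rods, so the controls were not free of Cre and carried 1 floxed *Pkm2* allele. The tissue came from mice perfused with cycloheximide, which halts ribosomes on their mRNA. The mice were 2 months old according to the methods but 2 weeks old according to the description sent with the data. No source used here says that the libraries of a group came from separate animals, so p-values measure the spread between these libraries, which may be technical.

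In darkness, photoreceptors release glutamate onto the dendrites of ON bipolar cells, where the receptor mGluR6 (*Grm6*) activates the G protein Gαo (*Gnao1*) and the cation channel TRPM1 closes. In light, glutamate falls, the GTPase accelerators RGS7 and RGS11 switch Gαo off, and the opening channel depolarizes the cell. GPR179 holds the RGS proteins at the dendritic tip, and nyctalopin (*Nyx*) is needed there for TRPM1. Loss of mGluR6, TRPM1, GPR179 or nyctalopin abolishes the ON response and causes congenital stationary night blindness. Rods are the presynaptic partner in this synapse, and *Prkca* (PKCα) and *Pcp2*, which binds Gαo, are common markers of rod bipolar cells.

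Totals ranged from 13458890 to 22790074 reads per library. Levels are given as CPM, reads in every 1000000 after TMM scaling over all 12 libraries, unless another scale is named. *Pkm*, which the table counts without separating its splice forms, had 3690, 3606 and 3895 CPM in the 3 control rod libraries and 1689, 1583 and 1565 CPM in the *Pkm2* Rodko rod libraries. In retina it had 1474, 1601 and 1477 CPM in control and 940, 947 and 971 CPM in *Pkm2* Rodko libraries, and every library lay where its label puts it. The 16 rod marker genes, such as *Gnat1*, all stood higher in rods than in retina, and *Gnat1* stood at 428% of its retina level in controls. Of 8 markers of ON and rod bipolar cells, such as *Cabp5*, all were detected in rods and all were lower there than in retina, and *Cabp5* stood at 16.1% of its retina level in controls.

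The first question was how the levels of the cascade genes in rods compare with those in the whole retina, which includes the rods. A share of the retina level therefore sets ribosome-bound RNA of a part against total RNA of the whole. In control mice, 9 of the 10 were lower in rods than in retina, and *Prkca* was not (limma on log2(TMM-scaled reads + 1), adjusted p under 0.05; 35.5% of the 25584 genes tested were lower). The 9 were also lower with no overlap between libraries (36.6% of all genes). With libraries scaled to equal totals in place of TMM, 49.1% of genes were lower. The median log2 difference of the 10 genes was -3.09, against -0.37 for all genes tested. In *Pkm2* Rodko mice the same 9 were lower, against 35.1% of all genes, with a median of -3.46 over the 10 and -0.32 over all genes. In bulk samples such as these, fewer cells of a type and less RNA per cell cannot be told apart.

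*Grm6* (ENSMUSG00000000617), the glutamate receptor of the cascade, had 83.6, 81.8 and 94.9 CPM in the 3 control retina libraries and 9.07, 11.6 and 9.34 CPM in the 3 control rod libraries. The highest rod library was far below the lowest retina library, and the mean in rods was 11.5% of that in retina. The log2 difference was -3.11 (SE 0.125, limma adjusted p = 4.21e-11). *Trpm1* (ENSMUSG00000030523), the channel that the cascade closes, had 215, 195 and 314 CPM in control retina and 20.7, 28.8 and 31.2 CPM in control rods. Its retina libraries varied more than those of *Grm6*, without reaching the rod libraries, and rods held 11.1% of the retina level (log2 difference -3.15, SE 0.170, limma adjusted p = 4.71e-10).

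The proteins around the receptor and channel stood at like shares. *Gpr179*, the orphan receptor that anchors the RGS proteins, had 103, 106 and 111 CPM in control retina and 8.52, 13.3 and 7.84 CPM in control rods. *Nyx*, a leucine-rich-repeat protein, had 25, 21.6 and 19.2 CPM in control retina and 3.36, 1.55 and 3.61 CPM in control rods, the last from 30 to 41 reads per library. Neither gene overlapped between the fractions, and their rod levels were 9.30% and 12.9% of retina. *Lrtm1*, which encodes a transmembrane protein with leucine-rich repeats, had 311, 282 and 264 CPM in control retina and 30.7, 45.0 and 34.3 CPM in control rods. Its share was 12.8%, again with no overlap.

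The G protein itself had a larger share in rods. *Gnao1* (ENSMUSG00000031748) had 352, 318 and 332 CPM in control retina and 63.1, 89.5 and 71.9 CPM in control rods. Rods held 22.4% of the retina level, the largest share of the 9 lower members, and each rod library was between 18.9% and 26.8% of the retina mean (log2 difference -2.17, SE 0.101, limma adjusted p = 1.21e-10). Gαo is not restricted to ON bipolar cells and is made by many neurons. The deactivating proteins were low in both fractions. *Rgs7* had 38.7, 34.8 and 32.1 CPM in control retina and 2.63, 7.94 and 3.43 CPM in control rods, and *Rgs11* had 24.9, 24.0 and 25.2 CPM in control retina and 1.36, 2.27 and 2.38 CPM in control rods. Their rod levels were 13.3% and 8.10% of retina, and the second control rod library alone placed *Rgs7* at 22.5%. *Pcp2* had 52.4, 46.3 and 50.1 CPM in control retina and 4.53, 4.48 and 3.70 CPM in control rods, a share of 8.55%.

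*Prkca* (ENSMUSG00000050965) stood apart from the other 9. It had 278, 321 and 238 CPM in control retina and 245, 302 and 256 CPM in control rods, and the libraries of the fractions overlapped. Its rod level was 96.0% of retina (log2 difference -0.05, 95% interval -0.36 to 0.25, limma adjusted p = 0.764). In *Pkm2* Rodko mice it had 218, 285 and 292 CPM in retina and 227, 250 and 328 CPM in rods, a share of 101.2%. This result depended on the scale: with libraries scaled to equal totals, *Prkca* was lower in rods by a log2 difference of -0.60 in controls (limma adjusted p = 0.00232) and -0.57 in *Pkm2* Rodko mice (limma adjusted p = 0.00340). The median of all genes then also moved, from -0.37 to -0.76 in controls, and relative to that median *Prkca* stood at 0.31 with TMM and 0.16 with equal totals, and *Grm6* at -2.75 and -2.90.

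A ratio of reads within 1 library needs no scaling. *Prkca* had 0.231, 0.289 and 0.191 reads for every read on the other 9 members together in control retina, and 1.70, 1.48 and 1.52 in control rods. In *Pkm2* Rodko mice the ratio was 0.228, 0.243 and 0.268 in retina and 1.75, 1.98 and 2.58 in rods. All 6 rod libraries were above all 6 retina libraries. *Prkca* therefore had a larger share of the cascade reads in rods than in retina under any scaling. Taken as a sum, the 9 others overlapped between the fractions in their proportion to markers of other inner retinal cells. Their summed reads were 0.175 to 0.214 of those on the 30 Müller, amacrine and ganglion markers in control rods and 0.186 to 0.201 in control retina. Against the 8 ON and rod bipolar markers the same sum was 1.82 to 2.39 in control rods and 1.94 to 2.14 in control retina. *Gnao1*, with the largest rod share of the 9, weighed on this sum. It held 63.1, 89.5 and 71.9 of 144, 205 and 168 CPM in control rods. In control retina it held 352, 318 and 332 of 1206, 1108 and 1243 CPM. The overlap is therefore that of the sum, and the proportion without *Gnao1* is not given here. Whether reads of the 9 genes in the rod libraries come from rods or from other cells was not tested.

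**Figure D1:**
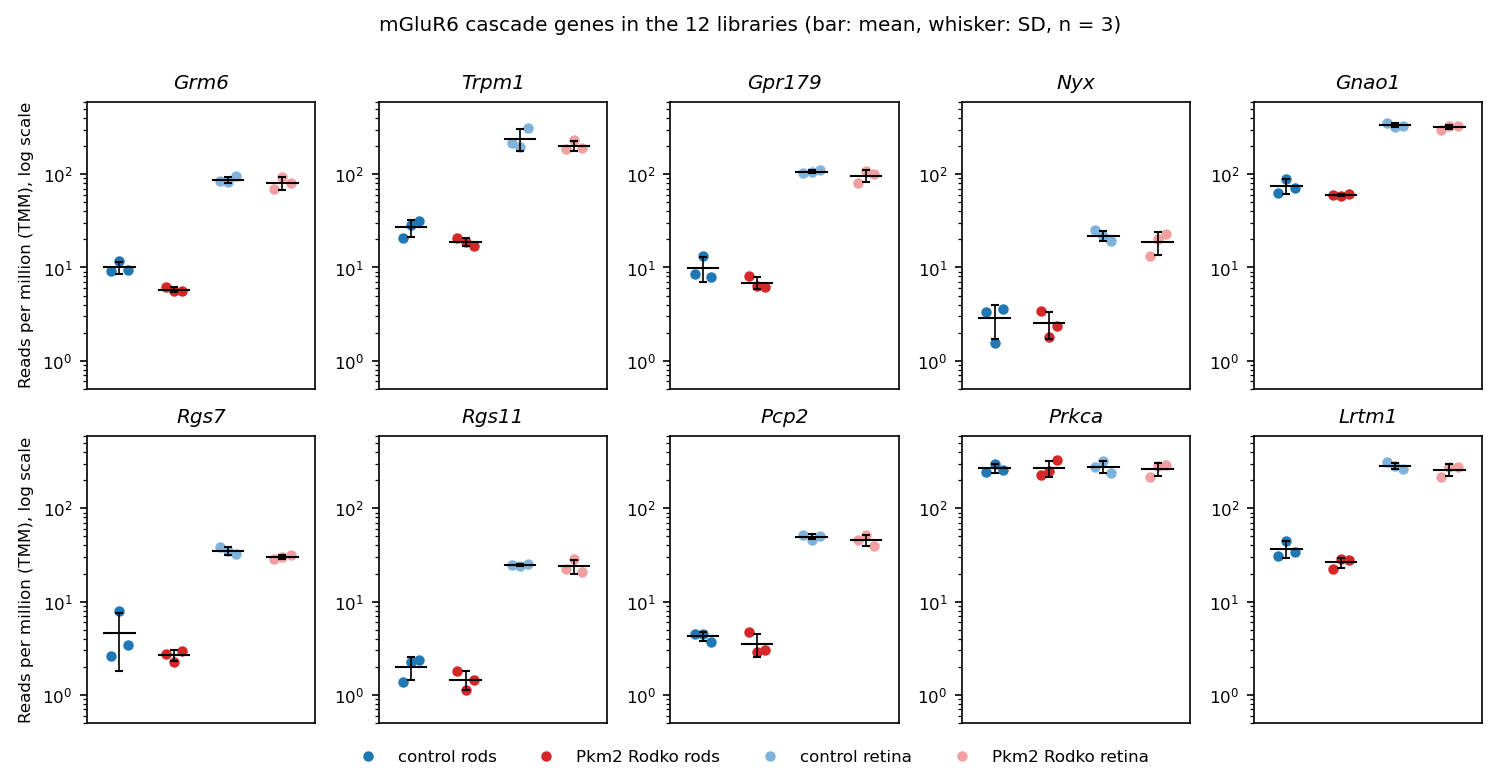
CPM of each of the 10 genes (TMM scaling, log axis) in the 12 libraries, one point per library, with the mean and SD of 3 libraries per group. *Prkca* lies between 218 and 328 CPM in every library, while the other 9 genes are lower in the 6 rod libraries than in the 6 retina libraries.

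Sequence upstream of the genes is shown for 3 members that were low in rods and for *Prkca*, which was not. Whether it bears on that contrast was not tested. RefSeq gave windows for 9 of the 10 genes (build GRCm38.p6, 250 bases before the start, written 5′ to 3′ on the strand of the gene). Capitals mark TAATCC, a core recognized by the photoreceptor and bipolar factors CRX and OTX2, on either strand (GGATTA when read on the other strand). *Trpm1* and *Lrtm1* were the only members with a match, and another window of *Trpm1*, not shown, held none.
*Grm6*, chr11:50850435-50850684, plus strand: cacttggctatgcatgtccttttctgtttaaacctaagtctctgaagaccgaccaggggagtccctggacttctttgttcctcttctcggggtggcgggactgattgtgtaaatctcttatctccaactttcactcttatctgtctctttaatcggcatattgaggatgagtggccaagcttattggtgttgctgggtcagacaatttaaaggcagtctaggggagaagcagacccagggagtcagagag
*Trpm1*, chr7:64153585-64153834, plus strand: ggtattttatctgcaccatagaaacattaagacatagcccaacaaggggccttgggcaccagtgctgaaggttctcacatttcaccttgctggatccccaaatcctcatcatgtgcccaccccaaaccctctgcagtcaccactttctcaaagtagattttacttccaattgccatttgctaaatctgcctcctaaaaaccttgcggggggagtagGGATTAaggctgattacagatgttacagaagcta
*Lrtm1*, chr14:29017958-29018207, plus strand: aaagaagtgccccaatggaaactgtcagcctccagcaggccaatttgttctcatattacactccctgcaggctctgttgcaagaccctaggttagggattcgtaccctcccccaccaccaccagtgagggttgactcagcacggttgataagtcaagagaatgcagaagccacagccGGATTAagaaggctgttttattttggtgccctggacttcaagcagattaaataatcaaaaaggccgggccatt
*Prkca*, chr11:108343889-108344138, minus strand: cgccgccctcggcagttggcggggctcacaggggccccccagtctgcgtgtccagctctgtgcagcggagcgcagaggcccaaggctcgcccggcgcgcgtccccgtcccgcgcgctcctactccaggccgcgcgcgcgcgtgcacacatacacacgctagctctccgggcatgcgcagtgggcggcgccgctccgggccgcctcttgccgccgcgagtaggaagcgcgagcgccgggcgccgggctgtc

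TAATCC stood in 1 of the *Trpm1* windows and in the *Lrtm1* window, and 6.25% of all 32851 windows of this length hold it. It stood in no window of the other 7 genes with an entry. TAATTA, a core of other homeodomain factors searched on both strands, stood in 1 window of *Pcp2*, against 4.84% of all windows. In base composition, the *Prkca* window was 76.8% G or C with 39 CpG dinucleotides, that of *Gnao1* 76.4% with 36 and that of *Rgs7* 72.4% with 22. The windows of the other 6 genes were between 44.8% and 58.8% G or C with 0 to 4 CpG, where the median over all windows was 52.4% and 6. A GC-rich start with many CpG was thus shared by *Prkca* and *Gnao1*, the members with the largest rod shares, and also by *Rgs7*. The share of *Rgs7* in controls came next at 13.3%, with single rod libraries from 7.47% to 22.5%. In *Pkm2* Rodko mice it was 8.77%, below *Nyx* at 13.4% and *Lrtm1* at 10.2%.

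Levels can be set beside each other between genes only per length. Per kilobase of exon (RPKM, TMM-scaled), the order in control retina was *Lrtm1* at 36.0 ± 2.99 (SD, n = 3), *Prkca* at 31.0 ± 4.61, *Gnao1* at 30.2 ± 1.57, *Pcp2* at 27.1 ± 1.69, *Trpm1* at 16.4 ± 4.33, *Grm6* at 16.0 ± 1.31, *Gpr179* at 11.2 ± 0.439, *Rgs11* at 5.88 ± 0.148, *Rgs7* at 5.85 ± 0.547 and *Nyx* at 4.24 ± 0.564. *Lrtm1* and *Prkca* overlapped in their libraries, as did *Prkca* and *Gnao1*, *Trpm1* and *Grm6*, and *Rgs11* and *Rgs7*. In control rods, *Prkca* led at 29.8 ± 3.38 RPKM, followed without overlap by *Gnao1* at 6.77 ± 1.22 and *Lrtm1* at 4.62 ± 0.941. *Pcp2*, *Grm6* and *Trpm1* followed between 1.82 and 2.32 RPKM, each overlapping the next, and *Gpr179*, *Rgs7*, *Nyx* and *Rgs11* were between 0.476 and 1.04 RPKM, also overlapping. In controls, the receptor and its channel were thus at like levels per length in each fraction, and the deactivating proteins were lower in both. In *Pkm2* Rodko rods *Trpm1* stood above *Grm6* without overlap, at 1.28 ± 0.125 against 1.07 ± 0.0669 RPKM. The median of the 10 genes was 16.2 RPKM in control retina and 1.83 RPKM in control rods. Exon lengths were those of all isoforms together in GENCODE vM21, which lowers the value of a gene with long exons that the retina does not use.

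Partners of the cascade that were not among the 10 genes divided between the fractions. Of 9 such genes, 2 were lower in rods than in retina and 5 were higher in both genotypes (limma adjusted p under 0.05, against 35.5% lower and 23.5% higher among all genes in controls and 35.1% and 23.9% in *Pkm2* Rodko mice). *Gng13*, a G protein gamma subunit of ON bipolar cells, had 2.63, 3.25 and 3.52 CPM in control rods and 39.1, 30.1 and 29.5 CPM in control retina. *Rgs7bp*, which anchors RGS7 at membranes, had 5.53, 12.9 and 10.3 CPM in control rods and 68.6, 61.8 and 62.4 CPM in control retina. These were 9.52% and 14.9% of retina, within the range of the 9 low members.

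Higher in rods was first of all *Gnb5*. This gene, the beta subunit that RGS7, RGS11 and the rod protein RGS9 all need, had 1547, 1567 and 1610 CPM in control rods and 516, 606 and 512 CPM in control retina, a log2 difference of 1.54 (SE 0.0786, limma adjusted p = 2.79e-10). *Ric8b*, a chaperone of G protein alpha subunits, stood at 208% of retina, *Rgs9bp* at 163%, *Lrit3* at 157% and *Dmd* at 137%. With equal totals only *Gnb5* and *Ric8b* were still higher, and 3 partners in controls and 4 in *Pkm2* Rodko mice were lower, against 49.1% and 48.8% of all genes. *Gnb3*, the beta subunit of ON bipolar cells and cones, had 417, 136 and 364 CPM in control rods and 296, 204 and 264 CPM in control retina. Its control rod libraries lay on both sides of the retina values, and its difference did not pass the test (log2 difference 0.13, SE 0.289, limma adjusted p = 0.726).

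On the rod side of the synapse, all 8 genes of the fixed list were higher in rods in both genotypes, at 161% to 373% of retina in controls. *Egflam* (pikachurin), which links the rod terminal to GPR179, had the largest share at 373%, and *Elfn1*, the rod adhesion protein that binds mGluR6, stood at 265%. *Slc17a7*, the vesicular glutamate transporter of photoreceptors, stood at 255% and *Cacna1f*, the calcium channel of the rod terminal, at 161%. Among all genes, 23.5% were higher in controls and 23.9% in *Pkm2* Rodko mice. With equal totals 7 of the 8 were higher, against 8.43% and 8.49% of all genes, and *Cacna1f* did not pass (log2 difference 0.14 in controls and 0.04 in *Pkm2* Rodko mice). The 9 low members and the 8 genes of the rod terminal thus stood on opposite sides of the retina level, with *Prkca* between them.

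**Figure D2:**
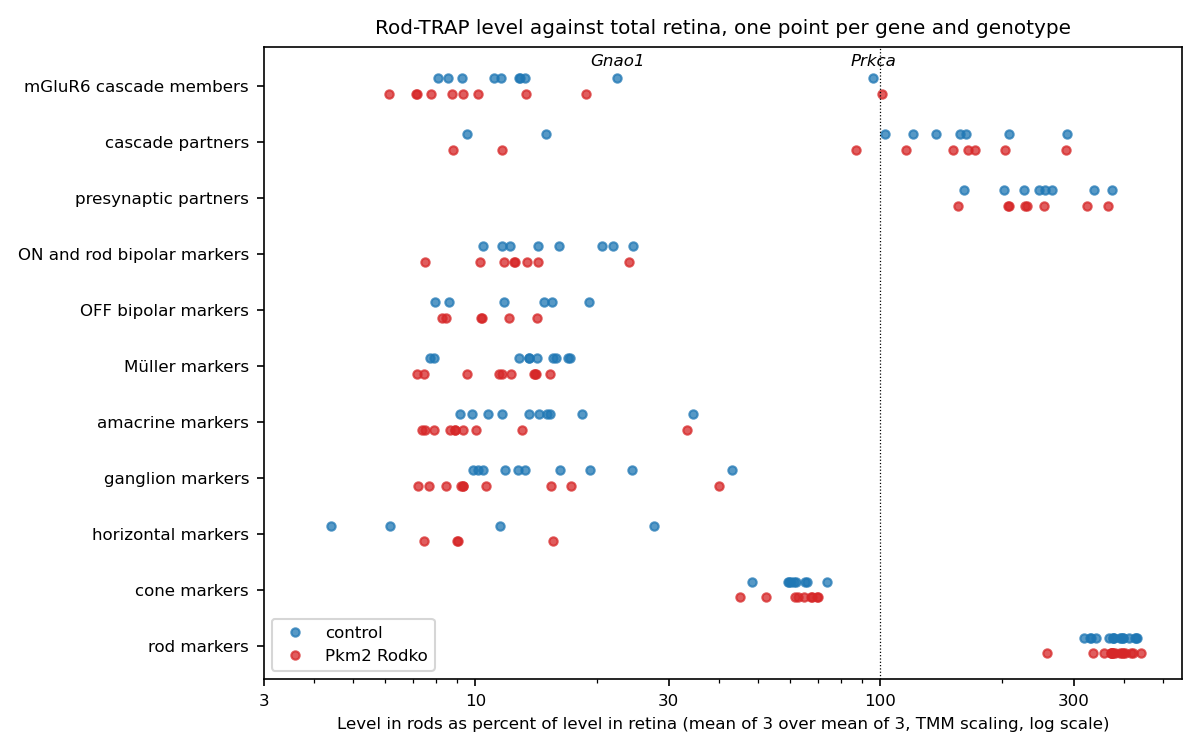
Level in rods as a percent of the level in retina (mean of 3 libraries over mean of 3, TMM scaling, log axis), one point per gene and genotype, for the 10 cascade genes, their partners and marker lists of retinal cell types. In controls, 9 cascade genes lie at 8.10% to 22.4%, among the bipolar, Müller, amacrine and ganglion markers, *Prkca* lies at 96.0% and all 8 presynaptic partners lie above 100%.

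The question of the knockout was whether loss of *Pkm2* in rods is accompanied by a change of these genes. In rods, 0 of the 10 passed the test of *Pkm2* Rodko against control (limma on log2(value + 1), adjusted p under 0.05; 0.0194% of 20658 genes were lower and 0% were higher). Of the 10, 9 had a log2 difference below 0 (48.9% of all genes), and 5 were lower at an unadjusted p under 0.05 (3.41% of all genes). The tools edgeR and DESeq2 on the recovered reads also called 0 of the 10, with 6 lower at an unadjusted p under 0.05 in each (3.5% of all genes in edgeR with TMM and 1.93% in DESeq2). The median of the 10 was -0.43, against 0.006 for all genes. With 3 libraries a group, no exact permutation test can reach a p under 0.1.

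*Grm6* had the largest difference on the log2(value + 1) scale. It had 9.07, 11.6 and 9.34 CPM in the control rod libraries and 6.20, 5.57 and 5.57 CPM in the *Pkm2* Rodko rod libraries, counted from 100 to 226 and from 74 to 100 reads. Every *Pkm2* Rodko library was below every control library. On the deposited values, the *Pkm2* Rodko mean was 58.0% of the control mean. The percents of control of single genes given below are on that scale too. The log2 difference was -0.77 (SE 0.176, 95% interval -1.15 to -0.39, limma unadjusted p = 0.000754, adjusted p = 0.932). It passed in 1 fit of all 12 libraries, which scales by TMM and pools the spread over the 4 groups (log2 difference -0.78, limma adjusted p = 0.0322), where 0.0664% of genes were lower. That fit had no replicate block, although rods and retina of the same number deviated together. The study reports *Grm6* as down-regulated in *Pkm2* Rodko rods from these libraries, a call that the main test here did not repeat. The direction of *Grm6* here is therefore not independent evidence.

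*Trpm1* had 20.7, 28.8 and 31.2 CPM in control rods and 20.6, 19.0 and 16.9 CPM in *Pkm2* Rodko rods. The groups did not overlap, by a margin of less than 0.1 CPM between the nearest libraries, and the *Pkm2* Rodko mean was 70.5% of control (log2 difference -0.49, SE 0.156, limma unadjusted p = 0.0082, adjusted p = 0.932). *Gnao1* had 63.1, 89.5 and 71.9 CPM in control rods and 59.8, 58.5 and 60.8 CPM in *Pkm2* Rodko rods, 80.2% of control without overlap (log2 difference -0.30, limma unadjusted p = 0.0264). The control libraries spread widely here and the *Pkm2* Rodko libraries hardly at all. *Lrtm1* had 30.7, 45.0 and 34.3 CPM in control rods and 22.6, 28.4 and 28 CPM in *Pkm2* Rodko rods, 72.3% of control without overlap (log2 difference -0.46, limma unadjusted p = 0.0101). In all, 4 of the 10 genes were lower with no overlap, against 5.40% of all genes.

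In the other 6 genes the libraries of the genotypes overlapped. *Gpr179* had 8.0, 6.39 and 6.24 CPM in *Pkm2* Rodko rods, where controls had 8.52, 13.3 and 7.84 CPM, and its log2 difference was -0.48 (limma unadjusted p = 0.0432, adjusted p = 0.932). *Rgs7* had 2.74, 2.26 and 2.95 CPM, against 2.63, 7.94 and 3.43 CPM in controls, and its mean was 57.0% of control, slightly below the share of *Grm6*. Its log2 difference of -0.64 rested on the second control library and was -0.18 without it. *Rgs11* had 1.8, 1.13 and 1.45 CPM in *Pkm2* Rodko rods (log2 difference -0.41), *Pcp2* 4.68, 2.86 and 3.06 CPM (-0.28) and *Nyx* 3.39, 1.81 and 2.34 CPM (-0.12). For *Nyx* the 95% interval ran from -0.88 to 0.64, which spans both directions. *Prkca* had a log2 difference of 0.00 with an interval of -0.28 to 0.28, and its *Pkm2* Rodko mean was 100.9% of control.

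The second control rod library had the highest level of *Grm6*, *Gpr179*, *Gnao1*, *Rgs7*, *Lrtm1* and *Prkca* of the 3, and it was the most deeply sequenced. Without it, 9 of the 10 genes were still below 0, but 2 rather than 5 were lower at an unadjusted p under 0.05 (3.7% of all genes) and the median was -0.27. The log2 difference without it was -0.24 for *Gpr179*, -0.16 for *Gnao1* and -0.30 for *Lrtm1*, each more than 1.5 times nearer to 0. Without the second *Pkm2* Rodko library 3 were lower at that p (1.98% of all genes), and without the third also 3 (2.6%). Of the 9 genes below 0, all but *Nyx* kept that direction whichever library was left out, and *Grm6* stayed between -0.84 and -0.65.

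**Figure D3:**
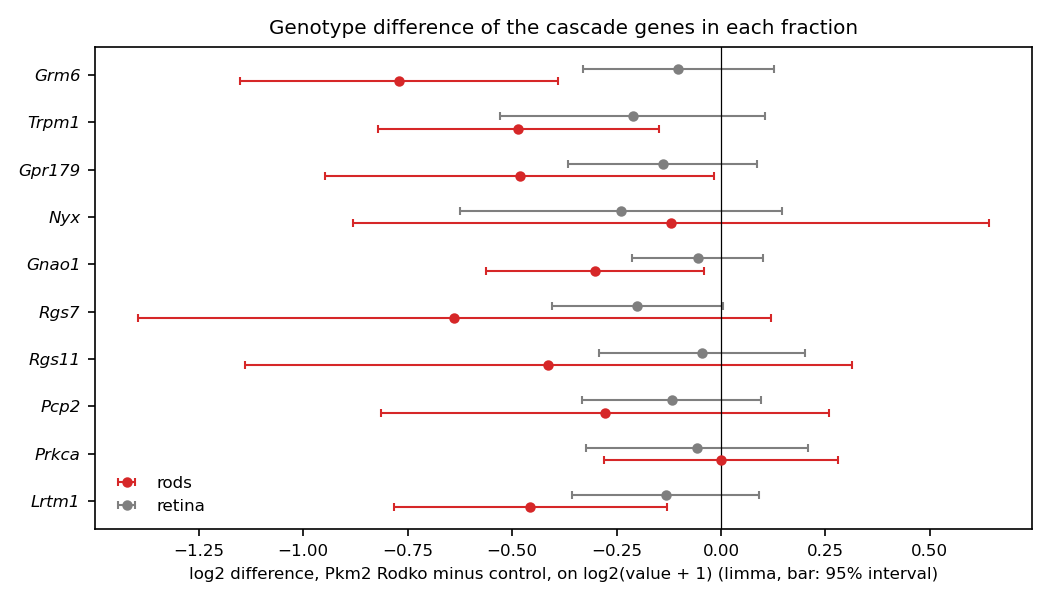
Log2 difference of *Pkm2* Rodko minus control on the log2(value + 1) scale in rods (red) and retina (grey) for each of the 10 genes, with limma's 95% interval, from 3 libraries per group. In rods *Grm6* is farthest from 0 at -0.77 and *Prkca* lies at 0.00, while the retina points lie between -0.24 and -0.05.

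The marker lists of inner retinal cells were measured in the same rod libraries. The summed level of the 9 members other than *Prkca* was 144, 205 and 168 CPM in control rods and 130, 126 and 127 CPM in *Pkm2* Rodko rods, 74.2% of control. None of the 8 ON and rod bipolar markers is a member. All 8 had a log2 difference below 0 (48.9% of all genes), and 3 were lower at an unadjusted p under 0.05 (3.41% of all genes). Their summed level was 79.3, 85.8 and 79.0 CPM in control rods and 58.2, 58.4 and 57.6 CPM in *Pkm2* Rodko rods, 71.4% of control.

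The lists of cells outside the cascade gave similar values. Among all genes in rods, 48.9% were below 0 and 3.41% were lower at an unadjusted p under 0.05. All 10 Müller markers, led by *Glul*, were below 0 (5 at an unadjusted p under 0.05), with sums of 544 to 697 CPM in control rods and 450 to 527 CPM in *Pkm2* Rodko rods. Of 10 amacrine markers 9 were below 0 (5 at an unadjusted p under 0.05), with sums of 145 to 218 CPM and 123 to 136 CPM. All 6 OFF bipolar markers were below 0, with sums of 17.7 to 25.7 CPM and 15.1 to 17.1 CPM, and all 10 ganglion markers were below 0 with sums that overlapped, 94.6 to 117 CPM and 65.7 to 103 CPM. The 4 horizontal cell markers divided evenly, with 2 below 0. The median log2 difference was -0.40 for ON and rod bipolar, -0.35 for Müller, -0.55 for amacrine, -0.40 for OFF bipolar, -0.40 for ganglion and -0.11 for horizontal markers, beside -0.46 for the 9 cascade genes. It was -0.10 for 9 cone markers and 0.05 for 16 rod markers. No gene of these lists was at 0 in every library of a group. The part of these cells in the cascade result was not tested.

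Within a library, the ratio of the 9 members to the Müller, amacrine and ganglion markers was 0.184, 0.214 and 0.175 in control rods and 0.170, 0.196 and 0.193 in *Pkm2* Rodko rods, so the genotypes overlapped. The ratio of *Grm6* to the other 8 low members did not overlap, with 0.0672, 0.0604 and 0.0590 in control rods and 0.0501, 0.0463 and 0.0458 in *Pkm2* Rodko rods. In retina that ratio was 0.0745, 0.0797 and 0.0827 in control and 0.0772, 0.0856 and 0.0790 in *Pkm2* Rodko libraries, with overlap. This ratio was chosen after the values of *Grm6* were seen, and no test was made of it.

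**Figure D4:**
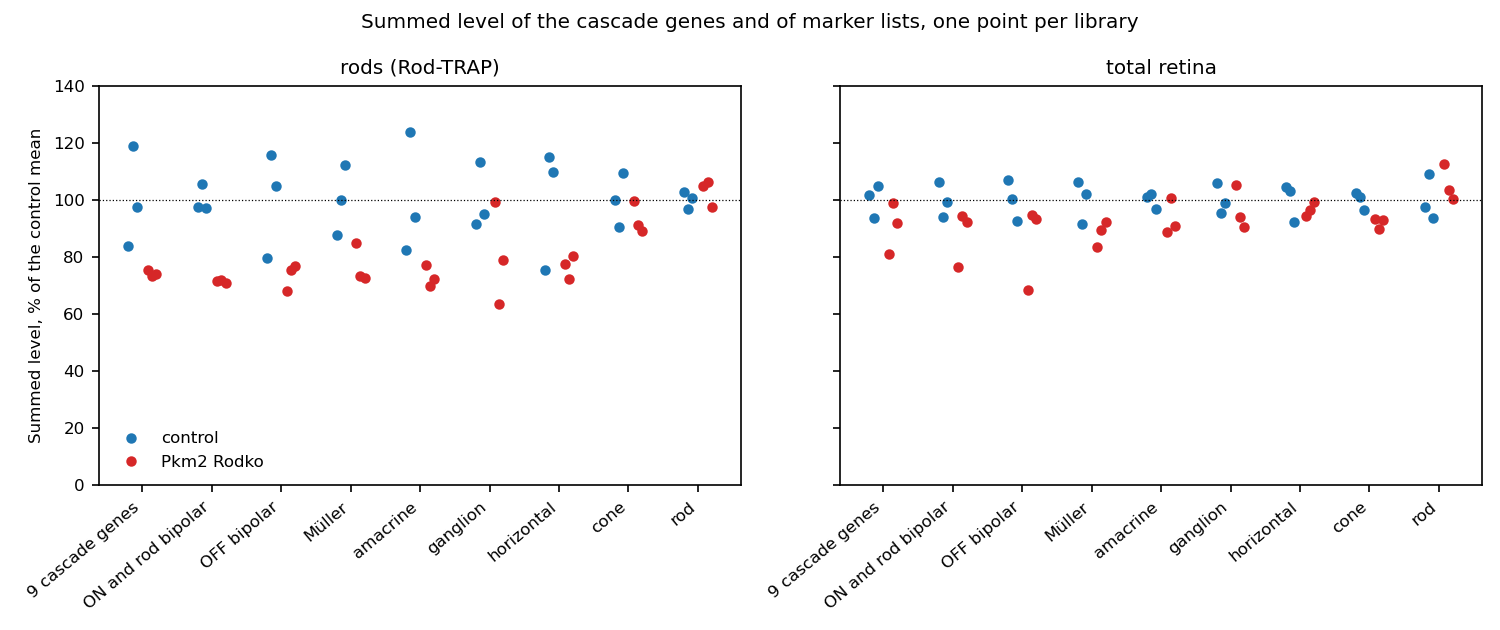
Summed CPM of the 9 cascade genes other than *Prkca* and of marker lists in each library, as a percent of the control mean of the same fraction, in rods (left) and retina (right). In rods the 3 *Pkm2* Rodko libraries lie below the 3 control libraries for the cascade genes and for the bipolar, Müller and amacrine lists, and overlap them for ganglion, horizontal, cone and rod markers.

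In retina, 0 of the 10 genes passed the test of *Pkm2* Rodko against control (limma, 0.00391% of 25590 genes lower and 0% higher) and 0 were lower at an unadjusted p under 0.05 (2.06% of all genes). DESeq2 called 0 at either threshold, and edgeR called 0 with 1 lower at an unadjusted p under 0.05 (2.37% of all genes with TMM). All 10 differences were below 0 (51% of all genes), with a median of -0.13 over the 10 and -0.004 over all genes, and the libraries overlapped in every gene (4.76% of all genes were lower without overlap). *Grm6* had 68.7, 92.6 and 79.7 CPM in *Pkm2* Rodko retina, around the control values of 83.6, 81.8 and 94.9 CPM (log2 difference -0.10, SE 0.106, 95% interval -0.33 to 0.13). *Trpm1* had 184, 233 and 191 CPM (log2 difference -0.21), *Gpr179* 80.1, 109 and 99.5 CPM (-0.14) and *Nyx* 13.1, 20.2 and 23.0 CPM (-0.24).

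The first *Pkm2* Rodko retina library was the lowest of its group for *Grm6*, *Trpm1*, *Gpr179*, *Nyx*, *Gnao1*, *Rgs7*, *Prkca* and *Lrtm1*. Without it, 6 of the 10 genes were below 0 and the median was -0.006. *Gnao1* had 300.2, 328 and 325 CPM in *Pkm2* Rodko retina, *Lrtm1* 217, 281 and 279 CPM, *Rgs7* 28.8, 30.2 and 31.6 CPM, *Rgs11* 22.3, 28.4 and 20.9 CPM and *Pcp2* 45.3, 51.3 and 39.5 CPM.

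The effects of genotype in rods and in retina were then compared directly, as the difference of the differences in the fit of all 12 libraries. Of the 10 genes, 0 passed (limma, 0% of 25584 genes in either direction). Below 0 were 8 of the 10 (49.2% of all genes), and 1 was lower at an unadjusted p under 0.05 (2.6% of all genes). This was *Grm6*, with a difference of -0.66 (SE 0.177, 95% interval -1.04 to -0.28, limma unadjusted p = 0.00195, adjusted p = 0.978). The other 9 lay between -0.43 for *Rgs7* and 0.13 for *Nyx*. In this comparison too edgeR and DESeq2 called 0 of the 10, with 1 lower at an unadjusted p under 0.05 (3.59% and 2.74% of all genes).

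The partner lists were compared between genotypes in the same way. Of all genes, 48.9% were below 0 in rods and 3.41% were lower there at an unadjusted p under 0.05. In rods, of 9 cascade partners 0 passed and 3 were below 0, with a median of 0.06, and *Gnb3* was lower at an unadjusted p under 0.05 (log2 difference -0.67, SE 0.302, limma unadjusted p = 0.0442, adjusted p = 0.932). It had 181, 141 and 196 CPM in *Pkm2* Rodko rods, which overlapped the control values of 417, 136 and 364 CPM. Of the 8 presynaptic partners 0 passed and 4 were below 0, with a median of -0.008 and values from -0.05 to 0.10. *Elfn1* had 231, 200.3 and 220 CPM in control rods and 209, 218 and 203 CPM in *Pkm2* Rodko rods. In retina it had 70.9, 82.6 and 91.8 CPM in control and 107, 103 and 94.6 CPM in *Pkm2* Rodko libraries, which did not overlap (log2 difference 0.34, SE 0.0961, limma unadjusted p = 0.00409, adjusted p = 0.947). Of the 9 cascade partners in retina 0 passed and 2 were lower at an unadjusted p under 0.05, against 2.06% of all genes. *Gnb3* had 296, 204 and 264 CPM in control and 198, 188 and 209 CPM in *Pkm2* Rodko retina (log2 difference -0.33, limma unadjusted p = 0.0113, adjusted p = 0.947). *Gng13* had 39.1, 30.1 and 29.5 CPM in control and 25.8, 29.7 and 24.8 CPM in *Pkm2* Rodko retina (log2 difference -0.27, limma unadjusted p = 0.0369, adjusted p = 0.947), and both genes overlapped between the genotypes.

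Among the genes whose pattern over the 12 libraries was most like that of *Grm6* were *Cap2*, *Pam*, *Efr3b* and *Arhgef17*. Likeness was the root mean square difference of log2(TMM-scaled reads + 1) after centering each gene on its mean, over 16543 genes, and it was 0.125 for *Cap2*, 0.133 for *Pam*, 0.136 for *Efr3b* and 0.139 for *Arhgef17*. Of the cascade, *Gpr179* came nearest at rank 29 and *Trpm1* at rank 88. *Lrtm1*, *Pcp2*, *Rgs11* and *Rgs7* ranked between 195 and 506, *Nyx* at 1797, *Gnao1* at 2174 and *Prkca* at 7886. The 12 libraries span both fractions, so a gene with a like gap between rods and retina comes near on this measure.

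Some members share sequence with other genes, and the use of strand in counting is not given in the sources used here. In GENCODE vM21, exons of *Pcp2* overlap those of *Pet100* on the other strand, which had a mean of 72.3 reads in control rods and 157 in control retina. Exons of *Rgs11* overlap *Arhgdig* (15.3 and 132.7 reads), those of *Grm6* overlap Gm12660 (3.33 and 38 reads) and those of *Prkca* overlap *Apoh* (13.7 and 5 reads). *Lrtm1* lies inside *Cacna2d3*, a gene of the other strand with 121 and 1248 reads, without sharing exons. For *Prkca* in rods, with 2704 to 5895 reads a library, the overlapping gene held at most 25 reads.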

How the data were processed

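Rod-TRAP and total retina RNA were sequenced in 3 libraries per group (4 groups, 12 libraries). In the deposited table, the signal of a gene in a library is its reads over that library's size factor, kept to 1 decimal. The submitters' processing notes name CASAVA 1.8.2, HISAT2, DESeq2, edgeR and GRCm39, and the counting rule, annotation and use of strand are not given in the sources used here. Whole reads were recovered from the spacing of the values in each library, and 99.98% of positive values were whole reads within 0.051 of a deposited unit. The recovered size factors equal median-of-ratios factors of the 6 rod and 6 retina libraries taken apart, so the fractions are not on 1 scale as deposited. No 2 replicates agreed within sampling noise, and no column was left out. With 13458890 to 22790074 reads per library, the number of libraries limits the precision. Low counts limit it too for *Rgs7*, *Rgs11* and *Nyx*, which had 15 to 154 reads in a rod library.

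Genotypes were compared within a fraction by limma 3.58.1 (R 4.3.3, variance trend) on log2(value + 1) for genes with a mean of at least 1. Because the table held scaled values, limma was used and not a count test. Fractions, and the difference of genotype effects, were compared on recovered reads scaled by TMM over 12 libraries, in 1 limma fit of 4 group means. Folds on log2(value + 1) understate changes of low genes. P-values are two-sided and adjusted by Benjamini-Hochberg over all genes tested, threshold 0.05. Rods and retina of the same number deviated together (correlations 0.163 to 0.397 over the 6 pairs, each library closest to its own number), so the numbers pair the fractions. Alternatives were edgeR 4.0.16 and DESeq2 1.42.0 on recovered reads, other scalings, filters of none or 10 reads, a pseudocount of 0.1, a replicate block and leaving out each library. Scripts were tested on simulated data. Tables were handled in Python 3.11.15 (pandas 2.3.3, numpy 2.4.6) and plots drawn in matplotlib 3.10.9.

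The members and all gene lists were chosen with earlier results of these data known. Named are the 10 members, *Pkm*, partners that pass a test or stand nearest to the members, at most 2 leading markers of a cell type and the 5 genes most like *Grm6*. Of these, 2 genes are not reported here by name. Promoter windows came from RefSeq (GRCm38.p6), where *Rgs11* has no entry.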

Additional observations from a re-analysis of the deposited data

How the results depend on the processing

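The 9 members lower in rods than in retina in each genotype were counted the same under RLE scaling, edgeR, DESeq2, other filters, a pseudocount of 0.1 and every library left out, and 10 were counted where *Prkca* joined them under equal totals or the values as deposited. Counts of 0 in retina and in the difference of effects held under each alternative run, and in rods 1 fit of all 12 libraries called 1 gene, *Grm6*. With the replicate number as a replicate block the counts were 9 and 9 for rods against retina and 0, 0 and 0 for the genotype comparisons, so the block changed no call. Control and *Pkm2* Rodko numbers do not pair the samples (correlations -0.235 to 0.109, 1 of 6 libraries closest to its own number). With equal totals the median level of the 10 genes per length was 1.52 RPKM in control rods, 0.954 in *Pkm2* Rodko rods, 19.7 in control retina and 17.5 in *Pkm2* Rodko retina. Over all genes in rods, edgeR with TMM called 4, as limma did, DESeq2 5 and 1 fit of 12 libraries 17. The cause of these shifts was not tested.

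Some directions turned. For *Prkca* in *Pkm2* Rodko mice, rods against retina became -0.59 on the deposited values, -0.57 with equal totals, -0.066 with RLE, -0.062 with DESeq2 and -0.011 with edgeR, and its genotype difference in rods was -0.0082 in 1 fit of 12 libraries. Leaving out single libraries gave for *Prkca* -0.16 to 0.052 in control and -0.14 to 0.10 in *Pkm2* Rodko mice (rods against retina), -0.16 to 0.12 in rods and -0.17 to 0.082 in retina (genotype) and -0.081 to 0.18 for the difference of effects. For *Nyx* it gave -0.49 to 0.090 in rods, -0.41 to 0.0047 in retina and -0.24 to 0.35 for the difference. In retina *Grm6* ran from -0.21 to 0.011 and *Rgs11* from -0.17 to 0.034, and for the difference *Rgs7* ran from -0.77 to 0.044. In rods *Rgs7*, *Rgs11* and *Nyx* were counted from 15 to 154 reads a library.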
